A study of Mus musculus with 5 samples.

Results

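The 7 genes described here were grouped because earlier work on these peak lists had picked them for the number of REST sites around them. They are Camta1, Atp2b2, Dpp6, Crtac1, Ajap1, Brd1 and Fam19a5. A site belonged to a gene when it overlapped the gene body or lay within 100 kb of the gene start, in mm9 coordinates. By that rule the 7 genes held 27 of the 1860 sites of the whole series. The description "many sites" applied to only 4 of them. Camta1 held 8 sites, Atp2b2 7, Dpp6 6 and Crtac1 4, whereas Ajap1 and Brd1 held 1 each and Fam19a5 held none. Of 22367 protein-coding genes in the annotation, 53 (0.237%) held at least 4 sites by the same rule, and 3753 (16.8%) held at least 1. Neighbouring genes can share sites, and 12 of the 53 were predicted genes on chromosome 9 with the same 13 sites. The genes were selected on site number, so the counts are a description and were not tested.

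The data were REST ChIP-seq peaks from whole pancreas of wild-type, untreated mouse embryos of mixed C57BL/6 background, made with the mouse monoclonal antibody 12C11. There were 2 libraries at E13.5 (A and B) and 3 at E18.5 (A, B and C), stages given as days of embryonic development, each from pooled pancreases. The lists held 1400 and 1333 peaks for E13.5, and 541, 417 and 226 for E18.5, after entries of 1 library that overlapped had been merged. Peaks of different libraries that overlapped by at least 1 bp were joined into a site. Sequencing depth is unknown, so a missing peak means that none was called there and not that REST was absent. Whole pancreas mixes cell types, and fewer cells of a type and less binding per cell cannot be told apart.

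REST is a zinc-finger protein that silences the genes near its DNA element, RE1, by bringing in enzymes that remove activating histone marks. Its classical targets are genes for ion channels, synapses and neurosecretion, and endocrine cells of the pancreas use many of the same genes. RE1 has a left and a right part, each contacted by different zinc fingers, and REST also binds versions in which the parts lie further apart. Atp2b2 encodes a plasma membrane calcium pump, Dpp6 an auxiliary subunit of Kv4 potassium channels, and Camta1 a calmodulin-binding transcription activator. Crtac1 encodes a secreted cartilage acidic protein, Ajap1 a membrane protein of adherens junctions, Fam19a5 a secreted chemokine-like protein of brain, and Brd1 a bromodomain scaffold of histone acetyltransferase complexes.

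The sequences under the sites are shown first, since the choice of genes did not use them. The consensus derived from E13.5 sites outside the 7 loci, from 813 matched windows of 1140, was the known RE1 element. It is printed in the orientation in which all elements below are shown.
RE1 consensus: GGCGCTGTCCATGGTGCTGAA
A site held an uninterrupted RE1 when a 21-base stretch on either strand matched the consensus with at most 5 mismatches, within 500 bp centred on the site or the whole site where it was longer. By this measure 17 of the 27 sites (63.0%, exact 95% binomial interval 42.4 to 80.6%) held one. Over all sites searched the share was 54.6%, but these include sites called in 1 library or at E18.5 alone. Restricted to sites that E13.5 A and B both called, the order turned, with 65.2% (15 of 23) at the loci, 71.3% over the series and 81.0% at intronic sites over 5 kb from any protein-coding start. None of 27 windows placed 10 kb downstream of the sites held a match, and 3 of 1849 did over the whole series.

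The largest array of matches was inside an intron of Camta1. Site 3 of this gene, at chr4:150978448-150979502, held 6 matches that did not overlap, all on the plus strand and spread over 562 bp. No site of the series held more, and 19 of the 1849 sites searched held 3 or more. The stretch chr4:150978688-150978987 (mm9, plus strand) shows 4 of the 6, with the matching bases in capitals.
Camta1 site 3: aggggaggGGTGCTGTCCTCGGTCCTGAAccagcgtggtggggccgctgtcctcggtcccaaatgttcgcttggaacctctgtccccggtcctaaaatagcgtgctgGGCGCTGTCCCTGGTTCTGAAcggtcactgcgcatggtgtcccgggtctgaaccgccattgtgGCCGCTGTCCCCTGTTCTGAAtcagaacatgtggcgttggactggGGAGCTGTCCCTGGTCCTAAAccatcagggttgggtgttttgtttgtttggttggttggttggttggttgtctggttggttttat
The best of these had 2 mismatches and the others 4 to 5. Camta1 site 4 was the other site of the 27 with several matches, 5 in all.

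Elements with the fewest mismatches outside that array are shown next, each with 15 flanking bases in lower case and the RE1 in capitals. They lay at chr4:152804251-152804301 (minus strand), chr19:42499886-42499936 (plus), chr19:42400566-42400616 (plus), chr15:88482596-88482646 (plus) and chr5:27379126-27379176 (plus), in that order.
Ajap1 site 1: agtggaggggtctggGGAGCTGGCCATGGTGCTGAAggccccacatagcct
Crtac1 site 2: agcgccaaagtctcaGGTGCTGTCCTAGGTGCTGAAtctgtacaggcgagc
Crtac1 site 4: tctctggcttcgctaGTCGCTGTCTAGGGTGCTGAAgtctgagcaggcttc
Brd1 site 1: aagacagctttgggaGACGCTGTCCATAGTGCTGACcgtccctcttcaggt
Dpp6 site 3: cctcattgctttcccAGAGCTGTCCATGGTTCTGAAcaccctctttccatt
The Ajap1 element had 2 mismatches and the others had 3. With Camta1 site 3 these made 6 sites (22.2%) with at most 3 mismatches, against 20.6% of all sites searched. Where E13.5 A and B both called the site, the shares were 17.4% (4 of 23) and 28.7%.

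There were 10 sites with no uninterrupted RE1, and in 4 of these the parts of the element were pulled apart. The first 10 and the last 9 bases of the consensus, which are 2 bases apart in the uninterrupted form, were searched at 7 to 10 bases apart with at most 3 mismatches over the 19 bases compared. This search was chosen after the data were seen. Such a split RE1 was present in 4 of 10 sites without the uninterrupted form, against 172 of 839 (20.5%) over the whole series. For sites that E13.5 A and B both called, it was 3 of 8 (37.5%) at the loci and 136 of 340 (40.0%) over the series. It was found in 3 of the 1849 windows 10 kb away. The examples below show both parts in capitals, at chr19:42471932-42471988, chr6:113802443-113802501 and chr5:27692661-27692717, all on the plus strand.
Crtac1 site 3: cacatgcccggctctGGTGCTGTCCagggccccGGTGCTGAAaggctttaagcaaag
Atp2b2 site 6: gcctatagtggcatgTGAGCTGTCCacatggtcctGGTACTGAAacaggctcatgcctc
Dpp6 site 5: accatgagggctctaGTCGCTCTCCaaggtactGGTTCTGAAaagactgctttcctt
Crtac1 site 3 had 1 mismatch with 8 bases between the parts, whereas Atp2b2 site 6 had 3 mismatches with 10 bases between. Dpp6 sites 4 and 5 both had 3 mismatches with 8 bases between. In all, 21 of the 27 sites (77.8%) had an uninterrupted or a split RE1, against 63.9% of all sites searched. Restricted to those that E13.5 A and B both called, it was 78.3% (18 of 23) at the loci and 82.8% (979 of 1183) over the series.

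The 27 sites lay in a combined window of 3.28 Mb, which gave 8.22 sites per Mb, whereas the assembled genome held 0.696 per Mb. A higher density follows from choosing genes by their number of sites, and the contrast was not tested. The rule favours long genes, since the whole gene body counts. Camta1 spans 802.4 kb and Dpp6 910.3 kb, and their densities were 8.87 and 5.94 sites per Mb of window. Atp2b2 (296.9 kb) and Crtac1 (148.7 kb) reached 17.6 and 16.1 sites per Mb. Ajap1 and Brd1 had 4.77 and 5.0 per Mb from a single site each.

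Sites were intronic or intergenic and lay more than 5 kb from the starts of protein-coding genes, taking 1 start per gene. Of the 27, 23 were in introns, 4 were intergenic, and none overlapped an exon of a protein-coding gene at its centre. No site was within 5 kb of a protein-coding gene start, whereas 441 of 1849 sites (23.9%) of the series were. Counting the starts of all annotated transcripts, 2 of the 27 (7.41%) were, Camta1 site 4 and Dpp6 site 3, beside 596 of 1849 (32.2%). The genes were picked on the positions of sites, and the rule counts whole gene bodies. These contrasts thus follow in part from the choice and were not tested. The site nearest to the start of its own gene was Crtac1 site 2, 6.37 kb into the gene, and the site nearest to any protein-coding start was Atp2b2 site 1, 5.53 kb from that of Slc6a11. There were 17 sites beyond 100 kb from the start, included because they overlapped the gene body. The member gene had the nearest protein-coding start for 14 of the 27 sites.

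**Figure D1:**
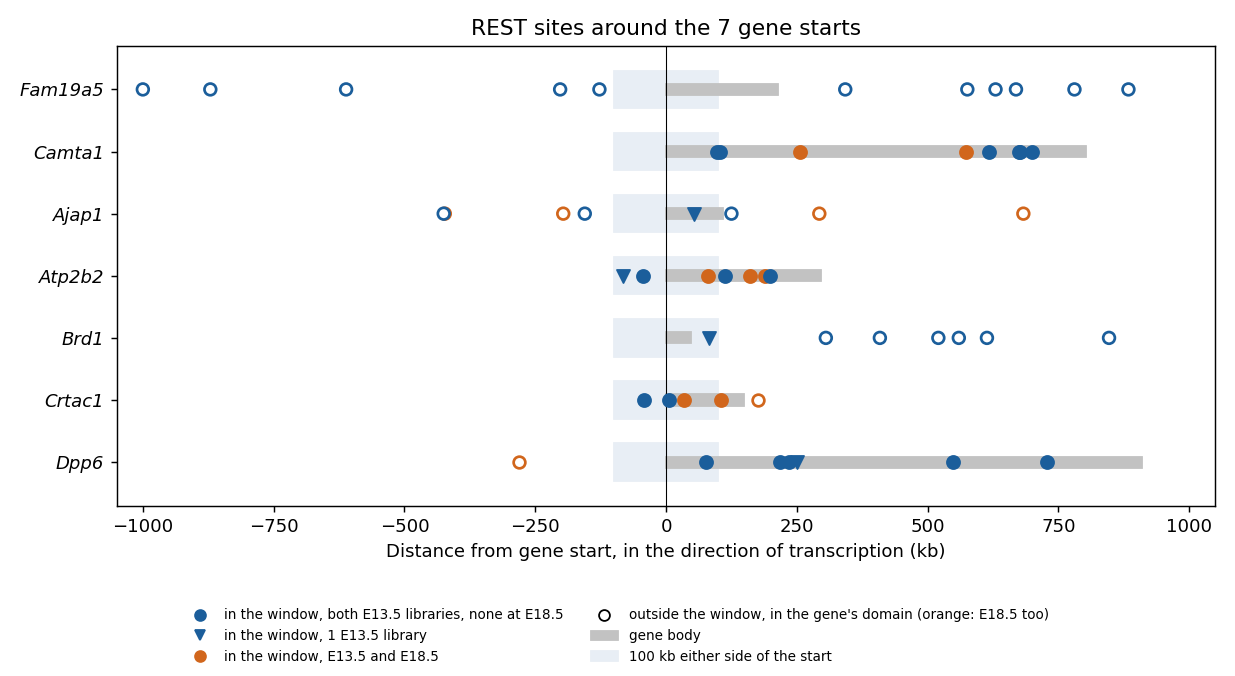
Positions of REST sites relative to the start of each gene, in kb along the direction of transcription. Grey bars are gene bodies, shaded bands reach 100 kb either side of the start, filled symbols are the 27 sites (orange where also called at E18.5, triangles where called in 1 E13.5 library), and open circles are sites outside the window but in the gene's wider domain. The 8 sites of Camta1 and the 6 of Dpp6 all lie in the gene body, and Fam19a5 has open circles only.

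Distances between neighbouring sites were taken only between sites of the same gene, which limits them to about the length of its window. The 21 intervals between neighbouring sites of the same gene had a median of 44.0 kb, and 13 (61.9%) were under 50 kb, against a median of 565.8 kb and 13.4% over 1829 intervals in the whole series. Intervals of the whole series have no such limit, and the genes were chosen for their number of sites. Shorter intervals at the loci thus follow from the choice and the measure, and the contrast was not tested. Medians by gene were 44.0 kb for Camta1, 36 kb for Atp2b2, 47.5 kb for Crtac1 and 140.9 kb for Dpp6.

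At Camta1 all 8 sites were in introns and all were called in both E13.5 libraries. They formed a pair 97.7 and 102.6 kb from the start, a single site at 257.0 kb, and 5 sites from 572.6 to 699.8 kb. The nearest protein-coding start was that of Camta1 for sites 1 to 3 and that of Gm13090, a predicted gene, for sites 4 to 8. Each of the 8 held an uninterrupted RE1. Scores were ranked inside a library, so that its best-scoring peak has percentile 100. Site 3, with the array, stood at percentile 99 in E13.5 A and 99.3 in E13.5 B, with scores of 53 and 82. It was also the single site of the 27 called in all 5 libraries, at percentiles 76.7, 53.4 and 79.2 in E18.5 A, B and C. Site 4 (chr4:150662891-150663779) had percentiles of 82.1 and 95.1 at E13.5 and of 70.2 and 73.6 in E18.5 A and B. Its centre lay 840 bp from the annotated start of a Camta1 transcript, Camta1-202. The lowest was site 5 (chr4:150619139-150619598), at 27.1 and 8.29, and no E18.5 peak was called there. These sites therefore ran from near the bottom to the top of the E13.5 lists.

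Some Camta1 sites had closely similar elements, and so did sites of other genes. Sites 6 and 7, whose centres were 0.666 kb apart with 165 bp between their edges, had elements identical at 20 of 21 bases on the minus strand. Only 7 of their 30 flanking bases were identical. Sites 1 and 2, 4.84 kb apart, had elements identical at 19 of 21 bases and flanks identical at 15 of 30. Dpp6 sites 3 and 6 were also identical at 19 of 21 bases, and Camta1 site 3 and Dpp6 site 3 at 18. Camta1 sites 3 and 7, which were not neighbours, also had flanks identical at 15 of 30. Such values were thus not particular to neighbouring Camta1 sites. Over all 136 pairs among the 17 elements, the median was 15 of 21 bases in the element and 8.0 of 30 in the flanks. The elements of Camta1 sites 6, 7, 1 and 2 are printed here, at chr4:150560724-150560774 and chr4:150560031-150560081 (both minus), then chr4:151138230-151138280 and chr4:151133384-151133434 (both plus).
Camta1 site 6: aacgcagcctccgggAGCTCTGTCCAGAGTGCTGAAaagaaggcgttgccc
Camta1 site 7: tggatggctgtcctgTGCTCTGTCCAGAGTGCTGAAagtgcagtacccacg
Camta1 site 1: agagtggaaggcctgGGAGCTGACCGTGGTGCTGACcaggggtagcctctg
Camta1 site 2: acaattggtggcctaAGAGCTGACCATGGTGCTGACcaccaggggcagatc
The percentiles of sites 6 and 7 were 62.6 and 44.8 in E13.5 A and 71.1 and 34.5 in E13.5 B, so site 6 was the higher of the pair in both libraries.

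At Atp2b2, most sites lacked an uninterrupted RE1. Of its 7 sites, 2 held an uninterrupted RE1, 1 held a split RE1 and 4 held neither, whereas no Camta1 site lacked the uninterrupted form. The contrast depends on the limit of 5 mismatches, since the best matches of Atp2b2 sites 3, 4 and 5 each had 6. The strongest Atp2b2 site, number 5 in an intron at chr6:113831784-113832386, was at percentiles 92.8 and 85.9 at E13.5 and stood at 61.3 in E18.5 A. Its best 21-base match had 6 mismatches, 1 more than allowed. Site 6 (chr6:113802234-113802805), with the split RE1, stood at 66.0 and 89.5 in the E13.5 libraries and at 48.2 in E18.5 A. Site 3 (chr6:113912781-113913235), also with 6 mismatches, was at 69.7, 57.3 and 48.2 in the same libraries. These 3 sites were the only ones of the locus called at E18.5, and each was called in E18.5 A alone. The lowest site, number 1 (chr6:114075650-114075752), was called in E13.5 A alone at percentile 1.43, and its best match had 10 mismatches. It lay 83.1 kb upstream of Atp2b2 but 5.53 kb from the start of Slc6a11, a GABA transporter gene. Slc6a11 was also the gene with the nearest start for site 2, and Sec13, which encodes a component of the COPII coat, for sites 5, 6 and 7.

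Crtac1 had 4 sites and 2 of them were called at E18.5. Site 3 (chr19:42471712-42472237), with the split RE1 of 1 mismatch, had percentiles of 85.1 and 75.7 at E13.5 and of 29.5 and 51.3 in E18.5 B and C. Site 4 (chr19:42400356-42400822) stood at 82.1 and 65.4 in the E13.5 libraries and at 27 in E18.5 C, and neither was called in E18.5 A. Site 2, the nearest to the start, was at 80.0 and 71.1 at E13.5, close to the values of site 4, and had no E18.5 peak. The lowest was site 1 (chr19:42547266-42547610), 41.2 kb upstream, at 21.6 and 1.76, with a best match of 6 mismatches. The 3 sites inside the gene thus ranked above the upstream site in both E13.5 libraries. The nearest protein-coding start was that of Golga7b for site 4 and that of Crtac1 for sites 1 to 3. A stronger site lay outside the window, 175.7 kb from the start of Crtac1 in a UTR of Golga7b, at percentiles 99.8 and 99.4 at E13.5, and it was called in all 5 libraries.

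Dpp6 was the locus with no E18.5 peak among those with 4 or more sites. All 6 sites were in introns, and 5 of them were called in both E13.5 libraries. The highest was site 1 (chr5:27220833-27221357), 77.4 kb into the gene, at percentiles 49.7 and 79.8. The lowest was site 4 (chr5:27393830-27394118), called in E13.5 B alone at 8.29. Site 3 was 3.39 kb from the start of an annotated transcript inside the gene, Dpp6-002. The nearest protein-coding start was that of Dpp6 for sites 1 to 4 and that of Speer4b for sites 5 and 6. An uninterrupted RE1 was present at 3 sites, a split RE1 at 2 and neither at 1. The mean percentile over the libraries that called a site ranged from 8.29 to 64.7 at Dpp6, from 17.7 to 99.1 at Camta1, from 1.43 to 89.3 at Atp2b2 and from 11.7 to 80.4 at Crtac1. In its window Dpp6 had no site above percentile 75 by this mean, where Camta1, Atp2b2 and Crtac1 each had 2. Stronger sites lay outside that window. One (chr5:28063605-28064120) was 9.56 kb beyond the limit, past the end of the gene, at a mean E13.5 percentile of 91.0, and had no E18.5 peak. The other (chr5:26862047-26862566), 281.4 kb upstream, was at 88.0 and was called in E18.5 A and B.

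**Figure D2:**
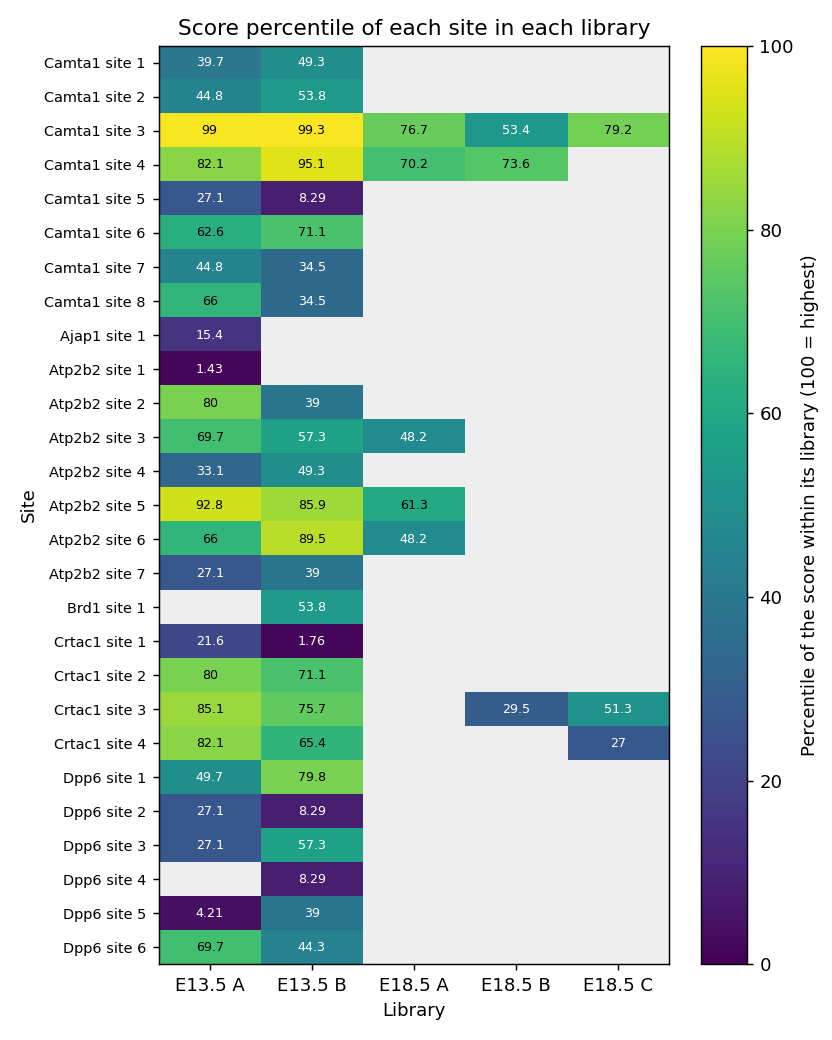
Score percentile of each of the 27 sites (rows, numbered along the gene from upstream to downstream) in each library (columns), where 100 is the highest score of that library. Grey cells had no peak. Camta1 site 3 is the single row filled in all 5 libraries, and the 6 rows of Dpp6 are empty at E18.5.

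Ajap1 and Brd1 each held a single site that was called in 1 library. The Ajap1 site (chr4:152804208-152804310) was in an intron 52.7 kb from the start, and was called in E13.5 A alone at percentile 15.4, despite the 2 mismatches of its RE1. The Brd1 site (chr15:88482431-88482871) was intergenic, 82.0 kb from the start and past the end of the gene, and was called in E13.5 B alone at 53.8. Fam19a5 had no site in its window. Its nearest site (chr15:87247494-87247801) was 127.3 kb upstream, 27.1 kb beyond the limit, at percentiles 1.43 and 8.29. The nearest site outside the Ajap1 window (chr4:152731552-152732093) was 125.1 kb from the start and 15.2 kb beyond the limit. The sites nearest to the limit on the inside, apart from those in gene bodies, were Atp2b2 site 1, at 16.9 kb from it, and the Brd1 site, at 17.8 kb.

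Assigning sites by another common rule changed which of the genes held many. The basal-plus-extension rule gives each gene a basal domain, 5 kb before its start and 1 kb after it, and lets this grow on both sides until it meets that of a neighbour, by at most 1 Mb. This alternative was added after the data were seen. Under it Fam19a5 held 11 sites, Camta1 and Ajap1 8 each, Atp2b2 and Brd1 7 each, Dpp6 6 and Crtac1 5. Of the sites, 6 lay between Fam19a5 and Brd1, which are neighbours on chromosome 15, and counted for both genes. At Dpp6 the domain lost site 6 of the window and gained a site 281.4 kb upstream of the start. Without double counting the domains held 46 sites. All 11 sites of Fam19a5 were intergenic and called in both E13.5 libraries, none was called at E18.5, and their mean E13.5 percentiles ran from 4.86 to 72.8. The 7 sites of Ajap1 outside its window ran from 25.4 to 97.5, and 4 of them were called at E18.5. The strongest of these (chr4:152173400-152174034) lay 683.2 kb from the Ajap1 start and was called in E18.5 A and C.

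**Figure D3:**
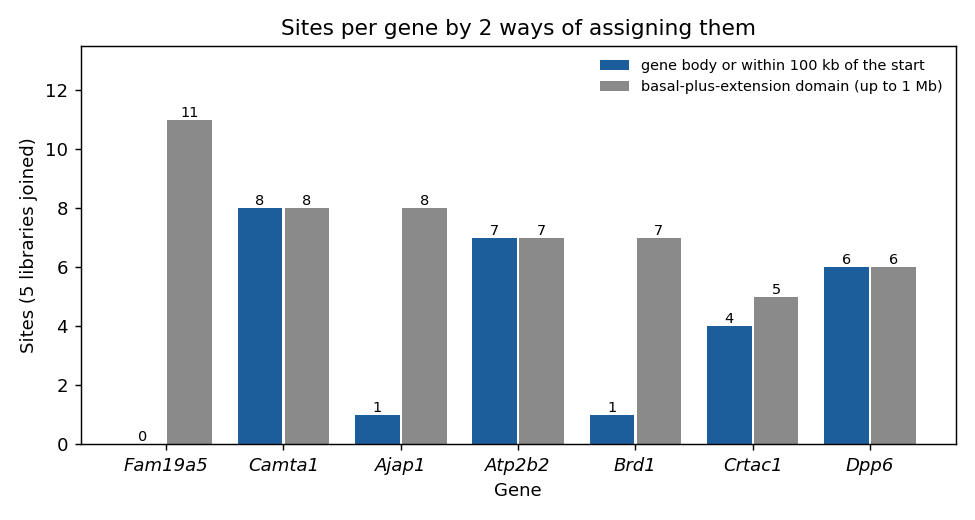
Number of sites per gene, with the 5 libraries joined, when sites are taken from the gene body or within 100 kb of the start (blue) or from the basal-plus-extension domain of up to 1 Mb (grey). Fam19a5 goes from 0 to 11, Ajap1 from 1 to 8 and Brd1 from 1 to 7, whereas Camta1, Atp2b2 and Dpp6 have the same number under both.

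The genes with the most sites by the window rule outside these loci were 12 predicted genes on chromosome 9, Gm10722 among them, which lay so close together that all shared the same 13 sites. All 13 were called in E18.5 A, but only 1 in E13.5 A and 4 in E13.5 B. These 12 tied, so the naming rule could not order them. Next came Rbfox3, a neuronal splicing regulator, and Gm20388, with 8 sites each. At Rbfox3 (421.8 kb, 15.3 sites per Mb) 7 sites were called in each E13.5 library and 1 in each E18.5 library. Rbfox3 and Gm20388 were named after their values were seen.

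The sites were called mainly at E13.5. Of the 27, 23 were called in both E13.5 libraries, 4 in 1 of them, and none at E18.5 alone, whereas 322 of the 1860 sites of the series were called at E18.5 alone. E13.5 A and B each called 25 of the 27, E18.5 A called 5, and E18.5 B and C called 3 each. The peaks at the loci were 1.86% and 1.88% of the E13.5 lists and 0.924%, 0.719% and 1.33% of the E18.5 lists. Because the genes were picked with these lists in view, this difference in share was not tested.

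Of the 23 sites called in both E13.5 libraries, 7 (30.4%, exact 95% binomial interval 13.2 to 52.9%) were called again, that is in at least 1 E18.5 library. Without E18.5 A the share was 17.4% (4 of 23), since the 3 Atp2b2 sites rest on that library. Over all sites of the series the share was 40.5% (480 of 1186), and among intronic sites over 5 kb from any protein-coding start it was 31.3%. The 7 had the higher median rank. Their mean E13.5 percentiles ran from 63.5 to 99.1 with a median of 80.4, whereas the 16 others ran from 11.7 to 75.5 with a median of 43.4, and the ranges overlapped. Above percentile 75, 5 of 6 locus sites (83.3%) were called again, beside 268 of 315 (85.1%) over the series. From percentile 50 to 75 it was 2 of 7 (28.6%), beside 41.3%. At or below 50 it was 0 of 10, where the series had 15% from 25 to 50 and 9.55% up to 25. Only 3 sites were called in at least 2 E18.5 libraries, namely Camta1 sites 3 and 4 and Crtac1 site 3.

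The sites called again did not all hold an RE1 by the limits used. Of the 7, 3 held an uninterrupted RE1, 2 a split RE1 and 2 neither, against 12, 1 and 3 of the 16 called at E13.5 alone. Both sites with neither form were at Atp2b2 (sites 3 and 5), and their best match had 6 mismatches, 1 more than allowed. The 3 with neither among the 16 also had 6. Of 1140 windows 10 kb from E13.5 sites outside the loci, 1.14% held a match with at most 6 mismatches. These 5 sites were thus counted as lacking an RE1 by a single mismatch. Among the 17 sites with an uninterrupted RE1, mean E13.5 percentiles ran from 15.4 to 99.1, and both of these had 2 mismatches. A close match was thus found at the weakest and at the strongest of these 17 sites.

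**Figure D4:**
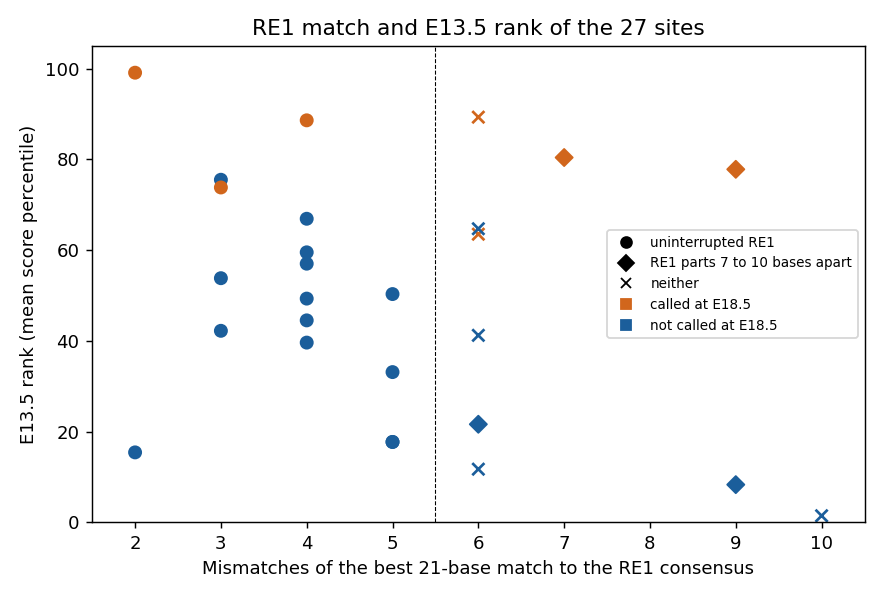
Mean E13.5 score percentile of the 27 sites (vertical axis) against the mismatches of their best 21-base match to the RE1 consensus (horizontal axis). Circles are uninterrupted RE1 matches (left of the dashed line), diamonds split RE1 matches and crosses neither, with orange for sites called at E18.5, and Camta1 site 5 and Dpp6 site 2 coincide at 5 mismatches. Sites with 2 mismatches stand at both 15.4 and 99.1, and 4 of the 7 orange symbols are right of the line.

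The genome was also searched for close elements, to see whether any at these genes went without a peak. There were 446 elements with at most 3 mismatches in the assembled genome, of which 384 (86.1%) lay in a site of the series. In sites that E13.5 A and B both called there were 343 (76.9%). The 7 windows held 6, and all 6 lay in a site, but only 4 in a site that E13.5 A and B both called. The 6 were at Camta1, Ajap1, Brd1 and Dpp6 (1 each) and Crtac1 (2), and none was found in the windows of Atp2b2 or Fam19a5. Those at Ajap1 and Brd1 lay in sites called in 1 library. In its basal-plus-extension domain Dpp6 had 3 such elements, of which 2 lay in a site. Every such element in the domains of the other members lay in a site. The genes were chosen for their number of sites, and the consensus was derived from E13.5 sites of the series. The shares of elements in a site thus depend in part on these choices, and the contrast with the genome was not tested.

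Stages were compared over libraries for 2 measures. For single peaks the RE1 search covered 500 bp centred on the peak, also where the peak was longer, unlike the search of sites above. The share of a library's locus peaks with an uninterrupted RE1 was 65.4% (17 of 26, as 1 site held 2 peaks) in E13.5 A and 64.0% (16 of 25) in E13.5 B. It was 40.0% (2 of 5) in E18.5 A and 66.7% (2 of 3) in both E18.5 B and C. The means were 64.7% ± 0.979 (SD, n = 2) and 57.8% ± 15.4 (SD, n = 3), a difference of 6.91 percentage points that was within the spread of the E18.5 libraries (exact two-sided permutation test, p = 1.0, adjusted p = 1.0 over 2 tests). Its sign turned without E18.5 A (-1.97), with at most 3 mismatches (-20.4), with equally long lists of top-scoring peaks (-27.8) and where split elements also counted (-8.21). The mean score percentile of a library's locus peaks was 53.7 and 52.4 in E13.5 A and B, and 60.9, 52.2 and 52.5 in E18.5 A, B and C. The stage means were 53.0 ± 0.873 (SD, n = 2) and 55.2 ± 4.95 (SD, n = 3), a difference of -2.14 (exact two-sided permutation test, p = 1.0, adjusted p = 1.0). Percentiles come from lists of different length, and with equally long lists of top-scoring peaks the difference was 19.7, so neither a difference nor a likeness of the stages can be read from it. With 2 libraries against 3 the smallest p this test allows is 0.2, so a difference could not have passed 0.05. The E18.5 values rest on 3 to 5 peaks per library.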

How the data were processed

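The authors aligned single-end ChIP-seq reads to mm9 with Bowtie2 2.2.5 and called peaks against input with MACS2 2.1.0; the submitters' processing notes also name SAMtools. Deposited were 5 peak lists, 1 per library, whose names state duplicate removal and a false discovery rate of 10%. Each peak has a position and a score, the authors' whole number of unstated unit, used here only as a percentile within its library. Depth is unknown. Overlapping entries of a library were merged, and coordinates are counted from 1. Genes come from GENCODE vM1 (mm9), and sequence from the mm9 genome. Groups were taken from the labels, which pair no libraries. No source used here says whether libraries of a stage came from separate litters, so p-values measure the spread between libraries only.

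The member genes and all lists were chosen with earlier results of these data known. Named were the members, the gene with the nearest protein-coding start for each site, the other genes with most sites in windows sharing none with the members, and in each locus the sites of highest and lowest E13.5 rank, those called at E18.5 and those nearest to the 100-kb limit. Intervals are exact binomial intervals at 95% and cover counting error over sites only; sites are not replicates. Scripts ran in Python 3.11.15 with SciPy 1.17.1 and pysam 0.24.0 and were tested on simulated data. Alternatives covered window, threshold, joining, RE1 search and libraries left out.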

Additional observations from a re-analysis of the deposited data

How the results depend on the processing

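The number of sites at the loci (27) stayed between 23 and 33 for 10 of 14 alternatives, and 25 to 27 when 1 library was left out. It was 6 with as many top-scoring peaks per library as the shortest list holds, 14 where the member had the nearest start, 45 where overlap had to cover at least 0.5 of both peaks, and 46 in basal-plus-extension domains. The share called again (30.4%) ranged from 17.4 to 30.4% without 1 library, the lowest without E18.5 A (4 of 23 sites). It was 100% (2 of 2) with the top-scoring peaks and 83.3% (5 of 6) with the stricter overlap, and in both cases few sites were left.

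The stage difference in RE1 share (6.91 percentage points) ranged from -1.97 to 11.4 without 1 library, negative without E18.5 A. It turned to -27.8 with top-scoring peaks, -20.4 with at most 3 mismatches and -8.21 where split elements also counted. The difference in mean percentile (-2.14) ranged from -3.66 to 0.713 without 1 library, again positive without E18.5 A, and became 0.541 for gene bodies only and 19.7 with top-scoring peaks. Exact permutation p-values over all alternatives lay between 0.2 and 1.0. With the replicate block, taking letters A and B as pairs without E18.5 C, the differences were 11.4 and -3.49. The labels do not say that equal letters pair libraries. Over 168 sites called in A and B of both stages, the A minus B differences in percentile of the stages had r = 0.0707. This value cannot decide whether they were paired, since an effect alike at all sites would not show in it. The cause of these shifts was not tested.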
